A study of Homo sapiens with 21 samples.

Results

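The PDGF, CSF1 and KIT receptors and their ligands were followed in A375 human melanoma cells and in lines derived from them. The members were chosen by name as class III receptor tyrosine kinases and their ligands. They are 10 genes of the 58870 in the data: 4 receptors (PDGFRA, PDGFRB, CSF1R and KIT) and 6 ligands (PDGFA, PDGFB, PDGFC, CSF1, IL34 and KITLG). Messenger RNA had been sequenced in 21 libraries, 3 in each of 7 groups. By the labels all groups carry the A375 background, a BRAF-mutant line. The parental group was neither edited nor treated. The groups gSOX10 #2 and gSOX10 #4 were each 1 clone made by CRISPR knockout, each with its own guide, of SOX10, which encodes a transcription factor needed in neural crest cells and melanocytes. The library titles of the latter carry a number that elsewhere belongs to a clone of MeWo, another melanoma line, although the label names A375. Both clones were compared with the parental line since libraries of a control clone were not analysed here. CRT34 and CRT35 were each 1 line that had acquired tolerance to inhibitors of BRAF and MEK as a tumor in mice. By the study, both lines were then kept in culture in the presence of such inhibitors. Each was sequenced under both drugs (Combo: PLX4720, a BRAF inhibitor, at 1 µM and PD0325901, a MEK inhibitor, at 35 nM) and under DMSO alone. The time without drugs is not given in the sources used here, and the study calls the replicates of the clones independent without saying how those of the other groups were grown, so p-values measure the spread between these libraries.

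Receptors of this class sit in the plasma membrane as single chains and pair up when a dimeric ligand binds, after which their kinase domains phosphorylate each other and recruit enzymes of the RAS, PI3K and PLCγ routes. PDGFRα and PDGFRβ are best known in fibroblasts, pericytes and other mesenchymal cells, CSF1R in monocytes and macrophages, and KIT in melanocytes, mast cells and blood stem cells. PDGF-A and PDGF-C act mainly through PDGFRα, PDGF-B binds both PDGF receptors, CSF-1 and IL-34 share CSF1R, and KIT ligand (stem cell factor) binds KIT.

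Values are normalized gene expression values as deposited, on a scale where 1 read was worth between 0.819 and 2.305 units. Estimated depth ran from 27.1 M reads (CRT35 DMSO replicate 1) to 75.5 M. Changes are log2 differences of value + 1 with the standard error (SE) from limma, and p was adjusted over the 19290 genes that reached a value of 10 in 3 or more libraries. To be called higher or lower, a gene needed both an adjusted p no greater than 0.05 and a 2-fold change. Of the 10 members, 9 passed the filter and KIT did not. SOX10 had 10348 to 12822 in the parental libraries, 392 to 517 in those of the clones and 0 to 6.32 in the CRT libraries, so no library went against its label in SOX10 level. That level cannot tell a knockout of A375 from one of MeWo, so it does not bear on the clone number in the gSOX10 #4 titles. The melanocyte markers TYR and MLANA were listed at 0 in the parental line as well, and 3 of the 8 melanocyte markers were under 10 in its libraries. Others were expressed there, such as MITF (mean 1447) and EDNRB (636). Against the parental line, MITF was called higher in CRT34 Combo and CRT35 Combo (log2 change 2.28 and 1.21). TYRP1 was called higher in those groups (4.62 and 2.955) and in CRT34 DMSO (3.72). EDNRB was called lower in both clones and both CRT35 groups (-1.17 to -2.85). PMEL was called lower in CRT34 DMSO and 1 clone, and TYRP1 was called lower in the same clone. CRT34 Combo replicate 3 resembled CRT34 DMSO (r = 0.963 to 0.972 across genes) as closely as its own group (0.959 to 0.969), and values without it are given where they change a call or move a called change by over 1.5 times. A lower level in such bulk RNA cannot be told apart from fewer cells carrying the transcript.

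The sequences before the starts of the receptors and of KITLG are shown because PDGFRB and CSF1R lie head to tail on chromosome 5, 466 bases apart on the minus strand, and because PDGFRA and CSF1R have 2 start sites each in RefSeq. Capitals mark matches to 2 motifs searched on both strands, TGANTCA (AP-1) and ACAANG (SOX). GGAATG (TEAD) was also searched and had no match. Each run is the 250 bases before a start, 5′ to 3′, from RefSeq on GRCh38.p14.
PDGFRA, first start (chr4:54229043-54229292, plus strand): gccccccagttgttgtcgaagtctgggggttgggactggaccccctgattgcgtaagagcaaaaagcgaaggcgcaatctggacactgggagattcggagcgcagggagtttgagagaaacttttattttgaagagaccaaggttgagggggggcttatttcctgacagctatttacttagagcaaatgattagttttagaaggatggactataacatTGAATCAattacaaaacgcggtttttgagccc
PDGFRA, second start (chr4:54233710-54233959, plus strand): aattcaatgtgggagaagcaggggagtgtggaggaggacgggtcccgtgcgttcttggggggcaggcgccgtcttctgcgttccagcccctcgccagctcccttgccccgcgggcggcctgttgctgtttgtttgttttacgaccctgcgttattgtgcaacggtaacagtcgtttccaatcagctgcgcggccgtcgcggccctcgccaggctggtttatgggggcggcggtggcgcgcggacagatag
PDGFRB (chr5:150155846-150156095, minus strand): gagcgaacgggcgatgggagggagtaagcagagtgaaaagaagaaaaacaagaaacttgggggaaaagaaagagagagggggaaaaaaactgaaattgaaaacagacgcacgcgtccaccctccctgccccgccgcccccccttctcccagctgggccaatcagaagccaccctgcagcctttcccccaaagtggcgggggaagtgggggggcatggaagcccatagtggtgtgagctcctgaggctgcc
CSF1R, upstream start (chr5:150113366-150113615, minus strand): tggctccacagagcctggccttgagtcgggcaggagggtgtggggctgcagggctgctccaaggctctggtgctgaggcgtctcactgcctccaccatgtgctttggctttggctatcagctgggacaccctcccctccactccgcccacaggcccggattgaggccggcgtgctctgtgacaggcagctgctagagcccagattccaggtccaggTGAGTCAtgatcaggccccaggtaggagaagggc
CSF1R, downstream start (chr5:150086555-150086804, minus strand): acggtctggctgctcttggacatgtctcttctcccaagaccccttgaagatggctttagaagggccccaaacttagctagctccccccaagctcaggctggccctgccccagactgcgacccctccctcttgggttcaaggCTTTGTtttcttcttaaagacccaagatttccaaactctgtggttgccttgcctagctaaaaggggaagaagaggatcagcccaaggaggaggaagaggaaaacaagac
KITLG (chr12:88580472-88580721, minus strand): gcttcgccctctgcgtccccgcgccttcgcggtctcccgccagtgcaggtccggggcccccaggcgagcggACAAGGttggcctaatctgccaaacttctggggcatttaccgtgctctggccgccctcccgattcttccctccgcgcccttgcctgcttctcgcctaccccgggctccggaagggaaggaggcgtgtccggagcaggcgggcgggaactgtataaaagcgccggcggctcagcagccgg
The first PDGFRA window held TGAATCA from 32 to 26 bases before the start, and the upstream CSF1R window, which reaches into the gap to PDGFRB, held TGAGTCA from 34 to 28 bases before the start. TGANTCA was found in 6.6% of 35116 promoter windows of the same length. The downstream CSF1R window held CTTTGT, the SOX motif read on the other strand, from 109 to 104 bases before the start, and KITLG held ACAAGG from 179 to 174 bases before its start. That motif was found in 30.9% of the windows, and GGAATG in 11.9%. KIT, with 1 window, and PDGFA, with 4, had no match to any of the 3 motifs. PDGFB, PDGFC, CSF1 and IL34 had no entry. The expression values are per gene and do not say which start was used.

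PDGFRA (ENSG00000134853.12, chromosome 4, 54229280 to 54298245, plus strand of GRCh38), the receptor of PDGF-A and PDGF-C, was called higher in all 6 comparisons with the parental line. The parental libraries had 72.2, 84.6 and 51.7. gSOX10 #2 had 445, 146 and 148, and gSOX10 #4 had 522, 142 and 247, so that 1 library in each clone stood above the other two while none overlapped the parental range. The log2 changes were 1.63 and 1.94 (SE 0.43, adjusted p = 0.00521 and 0.00177). The drug-free CRT lines had the highest levels. CRT34 DMSO had 971, 1649.7 and 1326, and CRT35 DMSO had 1654, 1449 and 1541, which are 18.6-fold and 22.4-fold above the parental line (log2 change 4.22 and 4.48, SE 0.43, adjusted p = 3.45e-07 and 1.33e-07). Under Combo the libraries had 312, 667 and 607 in CRT34 and 599.6, 557 and 435 in CRT35. They did not overlap those without drugs, as for 21.7% and 26.3% of all genes, and the differences did not pass the test (adjusted p = 0.0631 and 0.085). The annotated transcript ENSG00000282278 reads through PDGFRA on the same strand, so reads may be shared. It was at 75.8 or lower in every library. Among the comparisons with the parental line it was called in CRT35 DMSO alone, higher (log2 change 3.47, SE 1.21, adjusted p = 0.0267).

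PDGFRB (ENSG00000113721.14, chromosome 5, 150113839 to 150155872, minus strand), the receptor of PDGF-B, had a higher parental level than the other receptors of the class. It stood at 77.9 ± 13.1 per kb of exon in the parental line (SD, n = 3), against 7.28 ± 1.74 for PDGFRA and 2.38 ± 0.98 for CSF1R. Parental libraries had 449, 597 and 621. gSOX10 #2 rose to 873, 1631 and 1249.6 (log2 change 1.14, SE 0.37, adjusted p = 0.0184), a call that was lost without its replicate 2 (0.92, adjusted p = 0.0903), without parental replicate 1 (0.99, 0.0752) and with quantile normalization (0.94, 0.0538). gSOX10 #4 had 858, 802 and 799.9, above each parental library but not called (0.57, adjusted p = 0.236). The clones did not pass a test against each other (-0.56, 95% interval -1.34 to 0.21, adjusted p = 0.313). In the CRT lines PDGFRB rose further, to 2525, 3562 and 3311 in CRT34 DMSO and 7228, 4347 and 4196 in CRT35 DMSO (log2 change 2.49 and 3.21, SE 0.37, adjusted p = 3e-05 and 1.32e-06). It was also called higher in CRT34 Combo and CRT35 Combo, at log2 changes of 1.69 and 3.32.

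CSF1R (ENSG00000182578.13, chromosome 5, 150053291 to 150113372, minus strand), the receptor of CSF-1 and IL-34, was nearly silent in the parental line, with 10.9, 7.99 and 17.8. It had 201, 179 and 210.4 in gSOX10 #2, and 565, 222 and 513 in gSOX10 #4. These were increases of 15.6-fold and 31.8-fold (log2 change 3.97 and 4.99, SE 0.60, adjusted p = 3.67e-05 and 3.2e-06). CRT34 DMSO had 242, 435 and 475 and CRT35 DMSO had 525, 256 and 279.7, levels within the range of the clones. In CRT34 Combo, at 29.0, 65.0 and 263, it was 2.67 above the parental line (SE 0.60, adjusted p = 0.00125), which became 1.82 without replicate 3 (adjusted p = 0.00731), 3.38 without replicate 1 and 2.08 with quantile normalization. A pseudocount of 10 gave smaller CSF1R changes, all still called, of 3.24 and 4.24 in the clones and 2.08 to 4.12 in the CRT groups. For both PDGF receptors, by contrast, all CRT DMSO libraries lay above every clone library. The share of all genes with that order was not counted. RPL7P1, a ribosomal protein pseudogene on the opposite strand inside an intron of CSF1R, was highest in gSOX10 #4 and the parental line (means of 203 and 184) and lay between 125 and 139 elsewhere, so its order differed from that of CSF1R. Whether the libraries kept the strand is not settled in the sources used here. Macrophage and monocyte markers had summed values of 356 to 505 in the parental libraries and 28.1 to 94.5 in the derived ones, where LYZ, a lysozyme, made up most of the parental sum (400.3 ± 79.4, SD, n = 3) and was called lower in every derived group, and at least 1 of TYROBP, AIF1 and SPI1 was listed at 0 in all 3 libraries of every group. PTPRC, the pan-leukocyte CD45, had no library above 44.5. It passed the filter only through Combo libraries, so its calls as higher in CRT35 DMSO, CRT34 Combo and CRT35 Combo are no support. ITGAM, the integrin CD11b, was called higher in those groups and in gSOX10 #4 (1.82, 2.52, 2.40 and 1.87, SE 0.58), with no library above 30.6. In CRT34, ITGAM was also called higher under Combo than under DMSO (2.89), where CSF1R was lower. ITGAM reached a value of 10 only in groups where it was called higher, so its calls are no support either. The part of such cells in the CSF1R levels was not tested.

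KIT (ENSG00000157404.15, chromosome 4, 54657267 to 54740783, plus strand), the stem cell factor receptor of melanocytes and mast cells, was close to 0 throughout. It was listed at 0 in the 3 parental libraries and in 1 of CRT34 DMSO. The highest values were 22.8 in gSOX10 #2 and 15.1 in CRT35 Combo, each in 1 library, and the median of all libraries was 2.24. No test was made, since 2 libraries reached a value of 10. KIT lies 359021 bases from PDGFRA in the same cluster of receptor genes at 4q12, and KDR, the VEGF receptor gene beyond it, was called lower in all 6 derived groups (from 128.5 ± 20.1 in the parental line to group means of 8.09 to 32.7, SD, n = 3). The receptors of this cluster thus did not change in 1 direction.

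**Figure D1:**
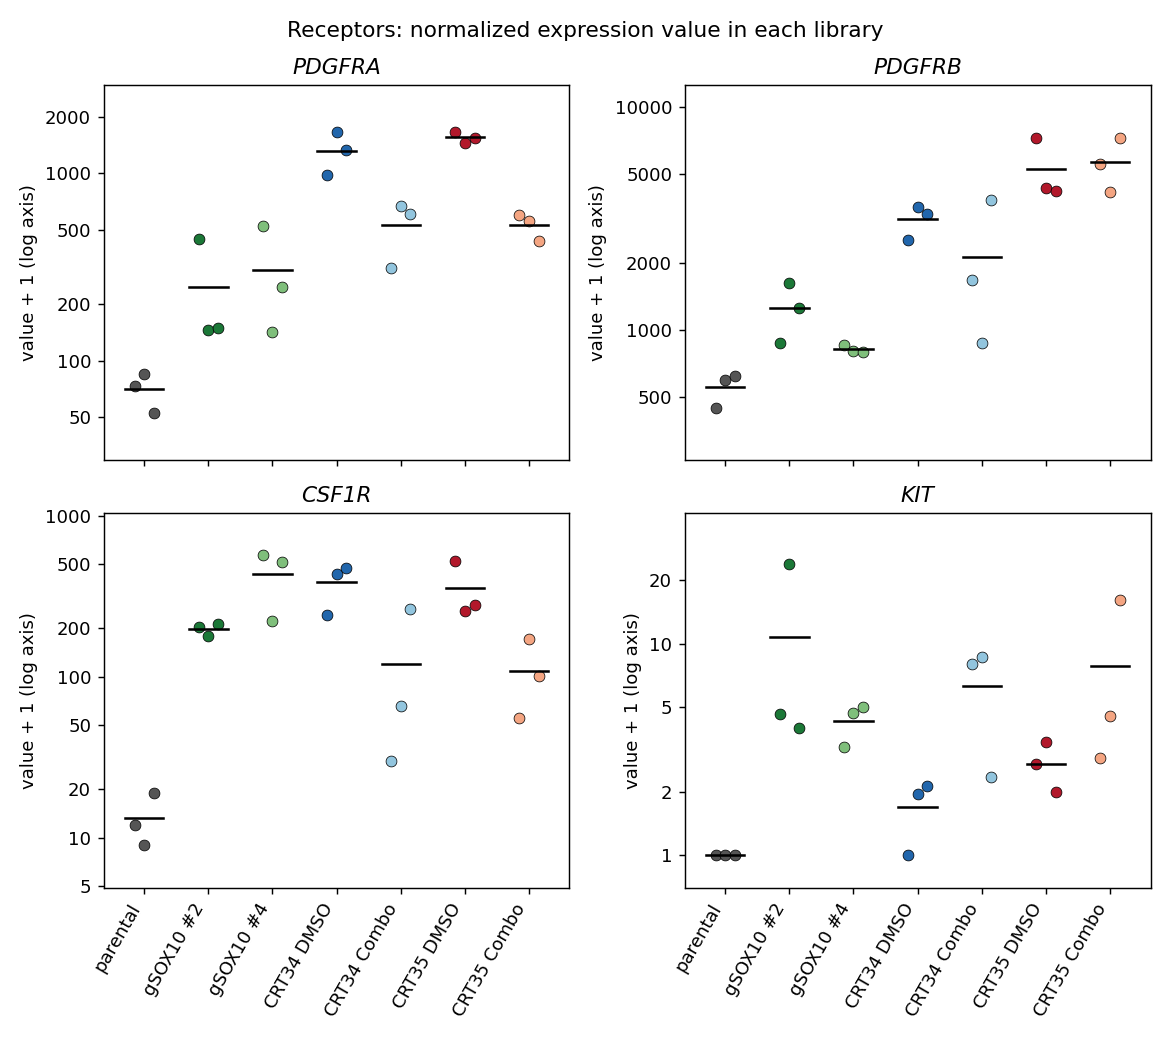
Normalized value + 1 (log axis) of the 4 receptor genes in each of the 21 libraries, with 1 point per library and a line at the mean of each group of 3. For PDGFRA, PDGFRB and CSF1R all 18 derived libraries lie above the 3 parental ones, as for 7.56% of genes tested, whereas KIT stays at 22.8 or lower.

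PDGFA (ENSG00000197461.13, chromosome 7, 497258 to 520296, minus strand), a ligand of PDGFRα, was called higher in gSOX10 #4 and in all 4 CRT groups. Parental libraries had 248, 242 and 279, and those of gSOX10 #2 had 255, 272 and 326, which overlapped them (log2 change 0.15, 95% interval -0.35 to 0.65, adjusted p = 0.648). gSOX10 #4 had 542, 534 and 538, an increase of 1.07 (SE 0.24, adjusted p = 0.00166) that fell to 0.88, under the fold threshold, with quantile normalization. Its level was above that of gSOX10 #2 by 0.92 on the log2 scale (SE 0.24, adjusted p = 0.00908), which is under 2-fold and so was not called. CRT34 DMSO reached 1553, 669 and 1298 and CRT35 DMSO reached 1596, 1438 and 1436, and both were called higher than the parental line (2.11 and 2.54, SE 0.24, adjusted p = 1.13e-06 and 9.1e-08). All 12 CRT libraries lay above all 9 others, and the share of all genes ordered in this way was not counted.

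PDGFB (ENSG00000100311.16, chromosome 22, 39223359 to 39244982, minus strand), the ligand of both PDGF receptors, did not exceed 63.2 outside CRT34 DMSO. It was called lower in both clones and higher in CRT34 DMSO. The parental libraries had 33.15, 46.0 and 27.35. Both clones fell, to 0.70, 9.88 and 6.96 in gSOX10 #2 and to 1.01, 2.33 and 3.45 in gSOX10 #4 (log2 change -2.76 and -3.53, SE 0.58, adjusted p = 0.000906 and 0.000117). Both depend on the smallest values, at -1.94 in gSOX10 #2 without its replicate 1, and at -1.55 and -1.88 with a pseudocount of 10, and each stayed called. CRT34 DMSO went the other way, with 217, 61.3 and 159.6 (1.86, SE 0.58, adjusted p = 0.0156). That call was lost when parental replicate 3 or replicate 1 or 3 of CRT34 DMSO was left out and with quantile normalization (adjusted p = 0.0551 to 0.0707). CRT35 DMSO had 18.2, 11.4 and 9.80, below each parental library (-1.38, SE 0.58, adjusted p = 0.0645), and was called lower with only the libraries of those 2 groups (adjusted p = 0.0171) and with quantile normalization (0.0183). The CRT lines differed from each other without drugs, with CRT35 lower 9.48-fold (SE 0.58 on the log2 scale, adjusted p = 0.000833), or by a log2 change of -2.62 with a pseudocount of 10.

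PDGFC (ENSG00000145431.11, chromosome 4, 156760454 to 156971799, minus strand), a PDGFRα ligand that needs proteolytic activation, rose in all 6 derived groups. The parental libraries had 590.4, 542 and 508. gSOX10 #2 had 1651, 1615 and 1428, and gSOX10 #4 had 1418, 2669 and 2132 (log2 change 1.51 and 1.88, SE 0.20, adjusted p = 8.4e-06 and 7.79e-07). The increases in the CRT groups ran from 1.93 in CRT35 DMSO to 2.66 in CRT34 Combo (SE 0.20), with adjusted p between 5.07e-09 and 3.04e-07. No library of any derived group fell into the parental range.

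CSF1 (ENSG00000184371.14, chromosome 1, 109910242 to 109930992, plus strand), the macrophage growth factor, had the highest parental level of the ligands per kb of exon (170.5 ± 37.5, SD, n = 3). Parental libraries had 667, 997 and 1016. Both clones were called higher, with 3310.1, 4921 and 3286 in gSOX10 #2 and 2941, 2947 and 2385 in gSOX10 #4 (log2 change 2.10 and 1.64, SE 0.39, adjusted p = 0.000259 and 0.00251). CRT34 DMSO stood near the parental level with 1333, 1145 and 1233 (0.49, 95% interval -0.32 to 1.30, adjusted p = 0.326), whereas CRT35 DMSO had 3244, 2586 and 3285 (1.78, SE 0.39, adjusted p = 0.00104). The difference between the lines without drugs was 1.29 (SE 0.39, adjusted p = 0.0289), and it was no longer called when 1 of 5 libraries was left out (adjusted p = 0.052 to 0.0919). In CRT35 Combo the libraries spread widely, at 5192, 3353 and 10139, and in CRT34 Combo they had 1738, 964 and 3922. The call of CRT34 Combo against the parental line (1.09, adjusted p = 0.0257) was lost without its replicate 3 (0.56, adjusted p = 0.185), without parental replicate 1 (0.108) and with only the libraries of those 2 groups (0.0965).

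IL34 (ENSG00000157368.10, chromosome 16, 70579895 to 70660682, plus strand), the second CSF1R ligand, was listed at 0 in the 3 parental libraries and did not exceed 1.25 in the clones. CRT34 DMSO had 8.45, 2.20 and 0, and CRT35 DMSO had 5.73, 1.57 and 2.87. Under Combo the values were 13.9, 0.62 and 26.0 in CRT34 and 14.9, 10.04 and 10.7 in CRT35. IL34 passed the filter only through the 5 Combo libraries that reached 10, so its calls in the 2 Combo groups are no support and are left out of the counts for the CRT lines below. No fold is given because the parental line was listed at 0.

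KITLG (ENSG00000049130.15, chromosome 12, 88492793 to 88580851, minus strand), the KIT ligand, was abundant although its receptor was not. The parental libraries had 481, 381 and 316. Those of the clones overlapped them, with 897, 457 and 390.2 in gSOX10 #2 and 441, 985 and 701 in gSOX10 #4 (log2 change 0.49 and 0.80, SE 0.50, adjusted p = 0.449 and 0.217). CRT34 DMSO had 1710.2, 339 and 595 and was not called (0.86, adjusted p = 0.177), but was called without its replicate 2 (1.38, adjusted p = 0.0392). CRT35 DMSO had 2316, 2556 and 2618, an increase of 6.43-fold (2.69, SE 0.50, adjusted p = 0.000239). Its level exceeded that of CRT34 DMSO by 1.83 (SE 0.50, adjusted p = 0.0168), which was not called when 1 of 4 libraries was left out (adjusted p = 0.0534 to 0.104) or with only the libraries of those 2 groups (0.0828), and was 2.47 without CRT34 DMSO replicate 1. In CRT34 Combo, with 4099.6, 8346 and 2030.6, KITLG stood at 778 ± 519 per kb of exon beside 0.472 ± 0.307 for KIT (SD, n = 3).

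**Figure D2:**
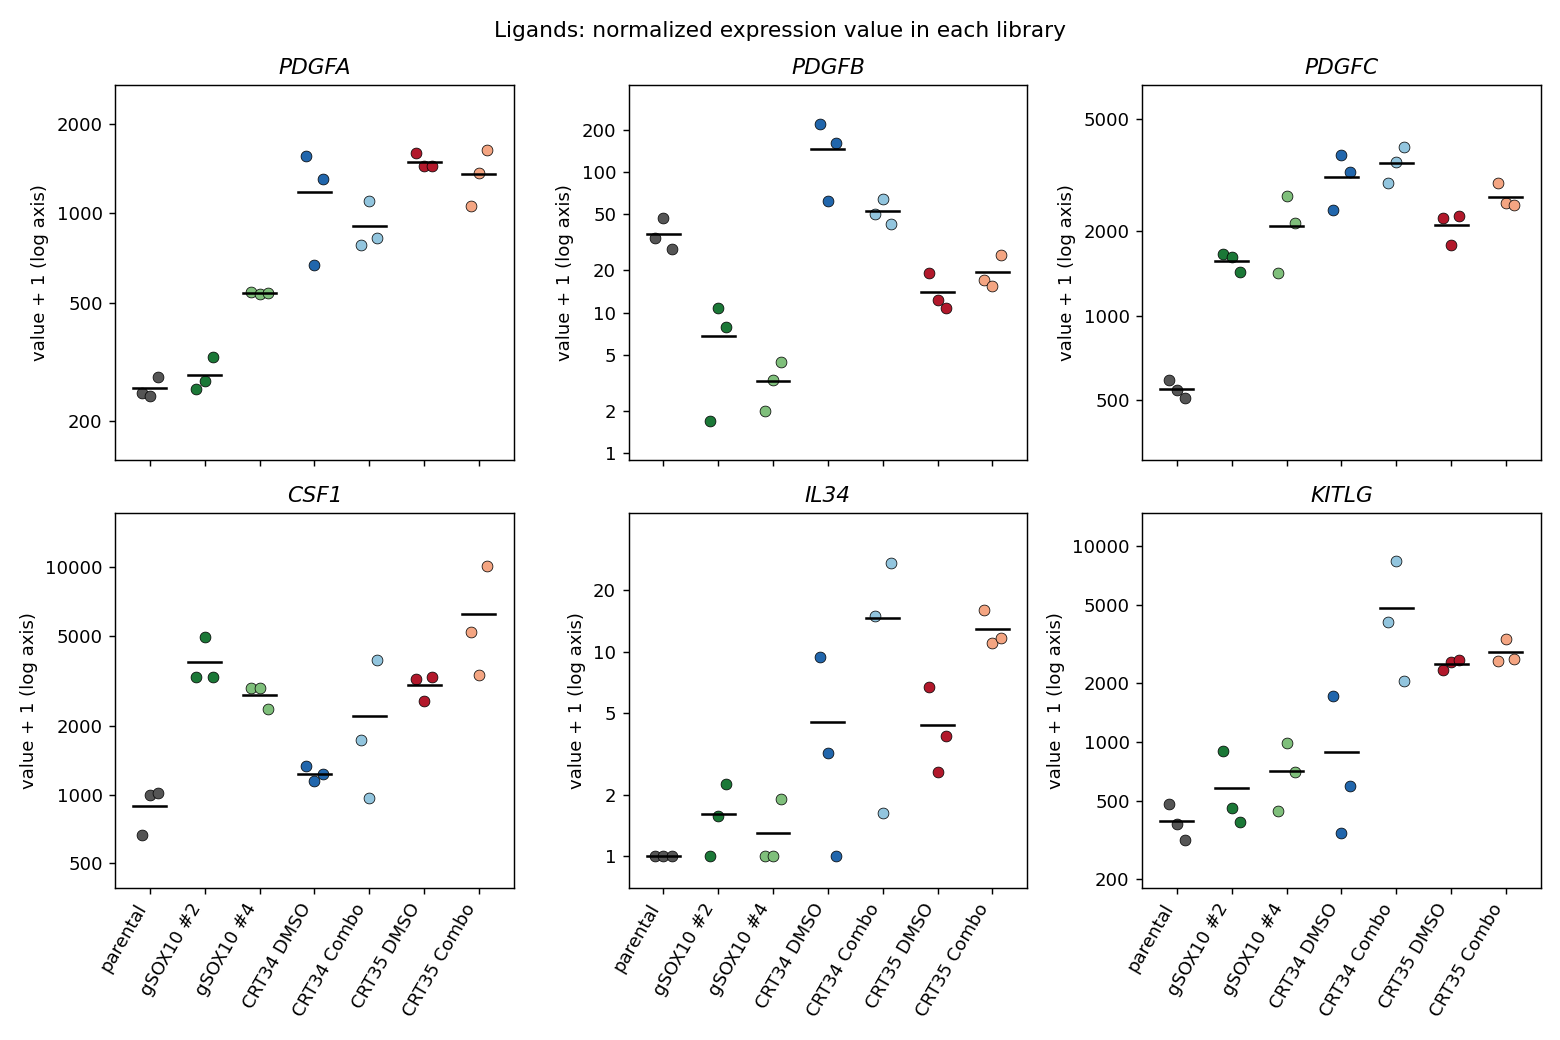
Normalized value + 1 (log axis) of the 6 ligand genes in each of the 21 libraries, with 1 point per library and a line at the mean of each group of 3. PDGFA lies highest in the CRT groups, PDGFC lies above the parental libraries in every derived group, PDGFB lies below the parental libraries in both clones, and KITLG lies highest in CRT34 Combo and CRT35.

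Loss of SOX10 was addressed by the comparison of each clone with the parental line. In gSOX10 #2, 6 of the 9 members tested were called, 5 higher and 1 lower, where 23.7% of all genes tested were called (15.9% higher and 7.78% lower). The counts were the same in gSOX10 #4, where 20.7% of genes were called (11.8% higher and 8.91% lower). For 6 and 7 members the libraries of the clone did not overlap those of the parental line, as for 60.6% and 50.2% of genes. PDGFRA, CSF1R, PDGFC and CSF1 were called higher and PDGFB lower in both clones, which share the parental libraries. PDGFRB was called in gSOX10 #2 and PDGFA in gSOX10 #4. The median log2 change of the members was 1.14 and 1.07, beside 0.03 and 0.00 over all genes. Between the clones, limma called 0 of 9 members (9.7% of genes), and 1, PDGFA, had an unadjusted p under 0.05, as did 33.7% of genes. For 4 members the libraries of the clones did not overlap (35.2% of genes).

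The acquired tolerance of the CRT lines was addressed by comparing them with the parental line. The CRT lines had also grown as tumors in mice. The study describes A375 cells from tumors of vehicle-treated mice, but libraries of such cells were not analysed here. Tolerance thus cannot be told apart from growth in mice. Of the 8 members without IL34, 6 were called in CRT34 without drugs and 7 in CRT35, each higher, where 23.1% and 23.7% of genes were called in either direction and 15.7% were called higher in both. With drugs, 7 of the 8 were called higher in each line, where 27.2% and 30.3% of genes were called in either direction and 19.1% and 20.1% were called higher. PDGFRA, PDGFRB, CSF1R, PDGFA and PDGFC were called higher in all 4 comparisons, which share the parental libraries. For 7 of the 8 in CRT34 DMSO and 6 in CRT34 Combo (background 55.2% and 58.4% of genes), and for all 8 in each CRT35 group (61.2% and 66.7%), the libraries did not overlap those of the parental line. The median log2 change of the members ran from 2.23 in CRT34 Combo to 2.77 in CRT35 Combo over these 8, beside 0.02 to 0.05 over all genes. Over all derived groups, PDGFRA, CSF1R and PDGFC were called higher in each of the 6, as were 3.92% of genes tested. With PDGFRB, 4 members had all 18 derived libraries above all 3 parental ones, as did 7.56% of genes.

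Fibroblast markers moved with these groups. All 7 (LUM, DCN, COL1A1, COL1A2, COL3A1, PDPN and FAP) were called higher in each CRT group, as were 15.7% to 20.1% of all genes. Their summed values went from 479 to 586 in the parental libraries to between 110900 and 475000 in the CRT libraries. In the clones 5 and 4 of them were called higher (15.9% and 11.8% of all genes), with sums of 1538 to 2560, and PDPN was listed at 0 in gSOX10 #2. COL3A1 and PDPN passed the filter only through groups in which they were called higher, so their calls are no support. LUM, DCN, COL1A1, COL1A2 and FAP also reached a value of 10 in parental libraries. Of 7 pericyte markers, 3 were called higher in each clone (15.9% and 11.8% of all genes) and 2 or 3 in each CRT group (15.7% to 20.1%), with ACTA2 and ABCC9 among them in all 6. In gSOX10 #2, CRT34 DMSO and CRT34 Combo, 1 or 2 were called lower, where 23.7%, 23.1% and 27.2% of all genes were called in either direction. Of 6 mast cell markers 1, CPA3, passed the filter and was not called. It reached 92.8 in CRT34 Combo replicate 1, 27.3 in CRT35 Combo replicate 1 and 18.1 in parental replicate 3, whereas TPSB2 and MS4A2 were listed at 0 in every group. Of 6 endothelial markers, 2 or 3 were called higher in the CRT groups (15.7% to 20.1% of all genes) and 1 or 2 lower. Between 23.1% and 30.3% of all genes were called there in either direction. TEK (log2 change 5.585 to 7.377) and PECAM1 (2.89 to 4.80) were called higher and KDR lower in each CRT group. In the clones PECAM1 was called higher too (3.14 and 3.27) and KDR lower, with VWF higher in gSOX10 #2 and CDH5 lower in gSOX10 #4. Summed values of the 6 were 168 to 220 in the parental libraries and 1943 to 7672 in the CRT libraries. CLDN5 was listed at 0 in all groups but CRT35 Combo. The part of other cell types in the changes of the receptors was not tested.

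**Figure D3:**
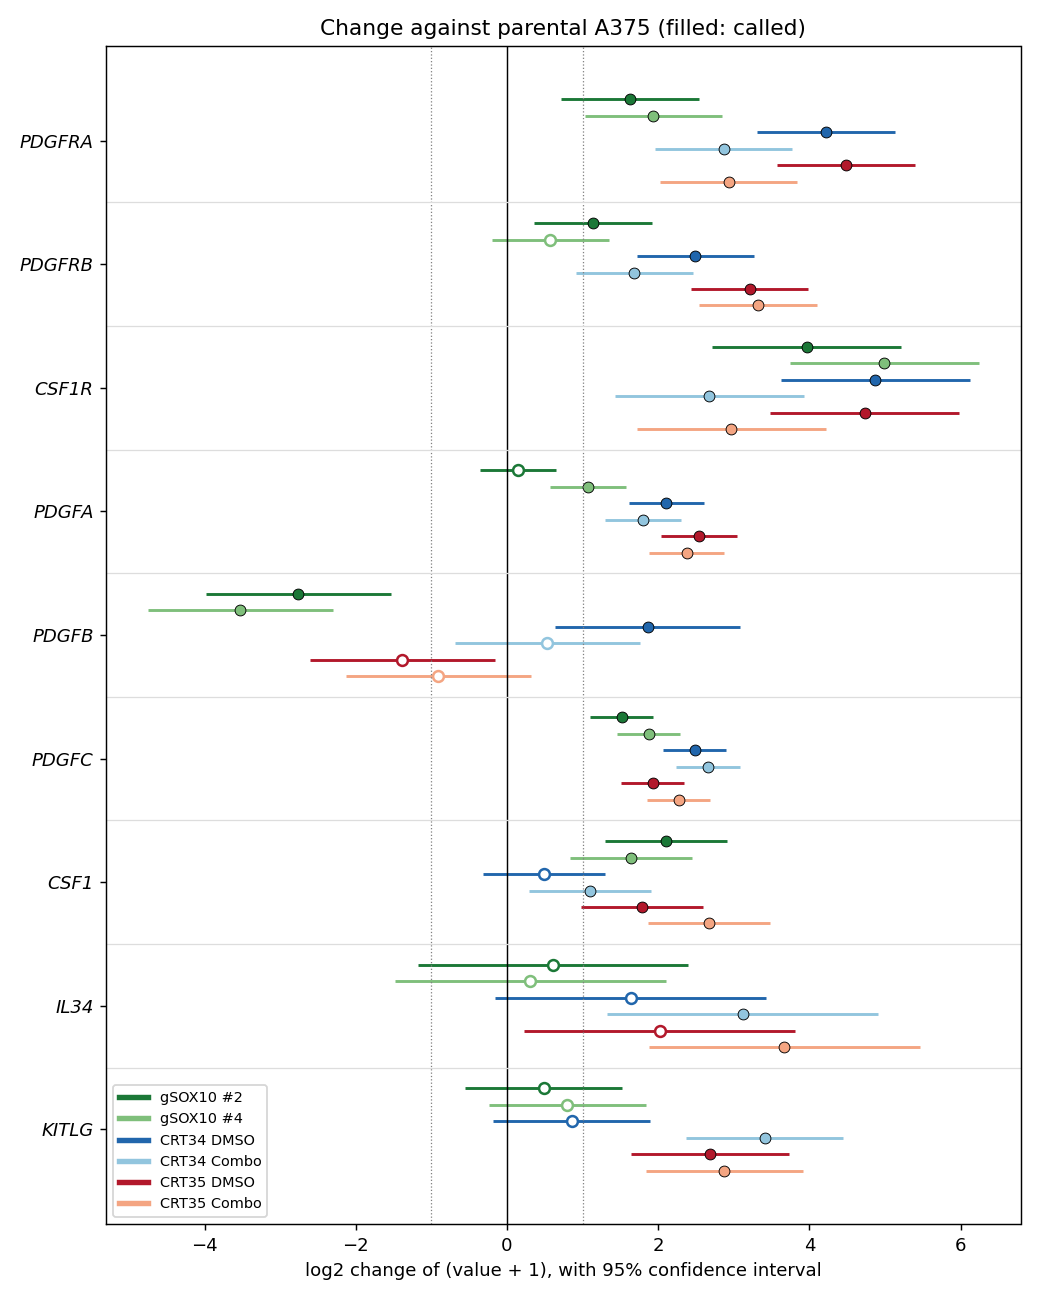
Log2 change of value + 1 against the parental line for the 9 members tested in each of the 6 derived groups, with 95% confidence intervals from limma. Filled points were called, open points were not, and dotted lines mark a 2-fold change. PDGFRA, CSF1R and PDGFC are filled in all 6 groups and PDGFB is the member called lower, in both clones. The IL34 changes depend on the pseudocount because the parental line was listed at 0, and IL34 passed the filter only through Combo libraries.

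The effect of the drugs was addressed within each CRT line, Combo against DMSO. The study kept these lines under the drugs, so DMSO stands for their withdrawal. DUSP6, a feedback target of the MAPK pathway, was lower under Combo in both lines (log2 change -2.52 and -2.38, SE 0.27, adjusted p = 2.67e-05 and 0.000169). In CRT34, 2 of 9 members were called, 1 higher and 1 lower, where 5.1% of genes were called (2.84% higher and 2.26% lower). PDGFRA and KITLG were the 2 members whose libraries did not overlap, as for 21.7% of genes. KITLG was higher under Combo by 2.55 (SE 0.50, adjusted p = 0.00372), with the 3 Combo libraries above all DMSO libraries, and by 3.19 without CRT34 DMSO replicate 1, which had the highest value of its group. CSF1R was lower under Combo by 2.20 (SE 0.60, adjusted p = 0.0287), with 29.0, 65.0 and 263 beside 242, 435 and 475 under DMSO. Both calls were lost with only the libraries of those 2 groups (adjusted p = 0.173 for KITLG and 0.247 for CSF1R), where the count of genes called went from 983 to 36. The CSF1R call was also lost when replicate 1 or 2 of CRT34 Combo or replicate 2 or 3 of CRT34 DMSO was left out (-1.49 to -2.08, adjusted p = 0.0878 to 0.149). Without replicate 3 of Combo the CSF1R difference was -3.05 (adjusted p = 0.000588). PDGFRA had a log2 difference of -1.35 (SE 0.43, adjusted p = 0.0631). PDGFRB, at 1667, 874 and 3809.5 under Combo, had -0.81 (SE 0.37, adjusted p = 0.211) and was called lower without replicate 3 of Combo (-1.36, adjusted p = 0.00644), the library that resembled CRT34 DMSO.

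In CRT35, limma called 0 of 9 members under Combo (1.14% of genes were called). At an unadjusted p under 0.05 there were 3, PDGFRA, CSF1R and CSF1, and 15.5% of genes. PDGFRA had a log2 difference of -1.55 (SE 0.43, adjusted p = 0.085) and CSF1R, at 54.7, 169.8 and 99.97 under Combo, had -1.77 (SE 0.60, adjusted p = 0.156). The libraries with and without drugs did not overlap for either gene. For 4 of the 8 members without IL34 the 2 groups did not overlap, as for 26.3% of genes. PDGFRA was called lower with only the libraries of those 2 groups (adjusted p = 0.0205). The PDGFRB difference was 0.12 (95% interval -0.66 to 0.89) and that of KITLG was 0.19 (-0.85 to 1.23).

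The drug effects of the lines were then compared with each other. Limma called 0 of 9 members (0.0104% of genes were called), and 2 members, KITLG and PDGFB, had an unadjusted p under 0.05, as did 6.96% of genes. KITLG had a difference of -2.36 (CRT35 minus CRT34, SE 0.70, adjusted p = 0.395), which was called without CRT34 Combo replicate 3 (-2.87, adjusted p = 0.0431). The PDGFRB difference of 0.92 (SE 0.53, adjusted p = 0.797) was called when that library and CRT35 DMSO replicate 1, the shallowest, were both left out (1.73, adjusted p = 0.0405). For PDGFRA the effects differed by -0.20 (95% interval -1.49 to 1.09) and for CSF1R by 0.43 (-1.34 to 2.20), intervals that allow more than a 2-fold difference either way.

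**Figure D4:**
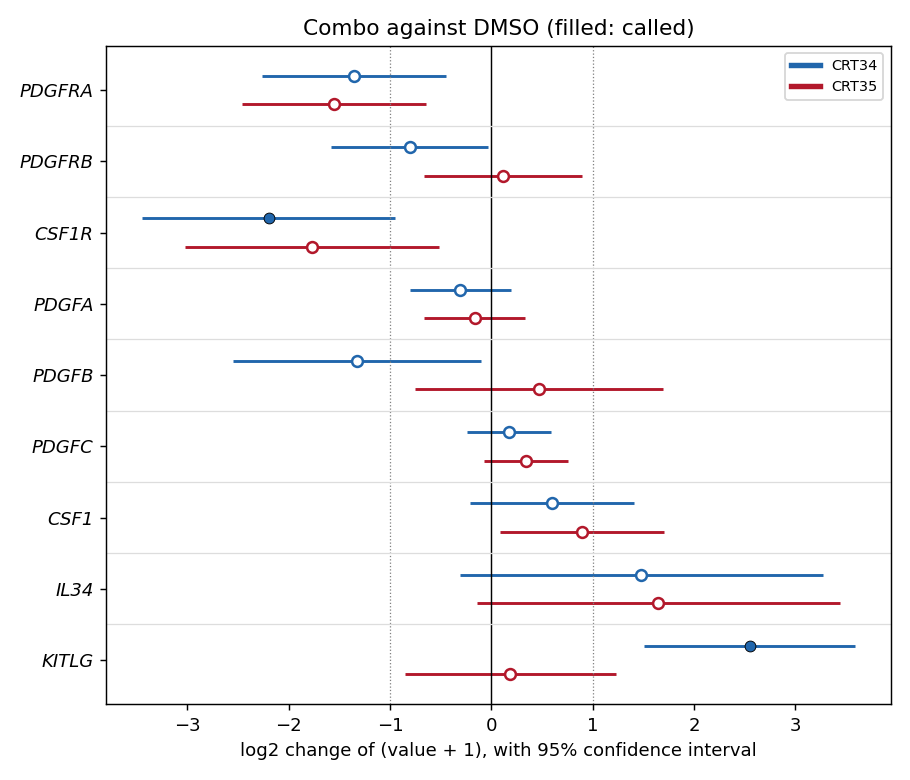
Log2 change of value + 1 under Combo against DMSO in CRT34 and CRT35 for the 9 members tested, with 95% confidence intervals from limma. Filled points were called (CSF1R and KITLG in CRT34), and dotted lines mark a 2-fold change. PDGFRA and CSF1R lie below 0 in both lines, whereas the KITLG interval lies above 0 in CRT34 and spans 0 in CRT35.

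Without drugs, CRT35 differed from CRT34 in 3 of 9 members, where 8.11% of genes were called (3.69% higher and 4.42% lower): CSF1 and KITLG were higher and PDGFB was lower, with the values given above. For 5 members the libraries of the lines did not overlap (33.7% of genes). PDGFRA, CSF1R and PDGFA overlapped between the lines. The order of the group means also differed among the receptors. That of PDGFRA put the parental line first, then the clones, the Combo groups and the DMSO groups, with adjacent groups passing the test from the parental line to gSOX10 #2 and from CRT35 Combo to CRT34 DMSO (log2 difference 1.29, adjusted p = 0.0386). The order of CSF1R put the Combo groups next to the parental line and gSOX10 #4 highest, and there the test was passed between the parental line and CRT35 Combo. For PDGFRB, PDGFA, PDGFB, CSF1 and IL34 no adjacent pair was called.

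Other genes of the pathway were taken from lists of partners. FLT3, the remaining receptor of the class, was at 2.62 or lower in every library. PDGFRL, a PDGF receptor-like secreted protein, was called higher in all 6 derived groups, from 77.0 ± 30.1 in the parental line to 646 ± 144 in CRT35 Combo (SD, n = 3). PDGFD, a PDGFRβ ligand, fell in both clones (-1.14 and -2.53, SE 0.20) and rose in CRT34 Combo (1.26, SE 0.20). Of 6 co-receptors and other receptors of the ligands, LRP1, which binds PDGFRβ, was called higher in all 6 groups (1.81 to 2.83) and PTPRZ1, a receptor of IL-34, was called lower in all 6 (-3.42 to -4.63). NRP1, a co-receptor, was called higher in all but CRT34 Combo, and reached 47648 ± 1315 in gSOX10 #2 from 6554 ± 1090 (SD, n = 3).

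Of 9 ligand-processing enzymes, PCSK5 and PCSK6, proprotein convertases, were lower in both clones, where PLAU and ST14, serine proteases, were higher. ST14 passed the filter only through groups in which it was called higher, so its calls are no support. PCSK6 was higher in all 4 CRT groups (1.06 to 2.13, SE 0.41). PLAU rose to 329 ± 52.1 and 811 ± 199 in gSOX10 #2 and #4 from 53.5 ± 17.7 (SD, n = 3). Of 26 signal transducers, between 2 and 4 were called in each comparison with the parental line, where 20.7% to 30.3% of all genes were called, with PIK3R3, a PI3K regulatory subunit, higher in all but gSOX10 #4. STAT5B was higher in both CRT34 groups, STAT3 in those and in CRT35 Combo, and SRC was lower in both CRT35 groups and in gSOX10 #4. Of 16 negative regulators, SOCS1 was higher in gSOX10 #2 and all CRT groups, from 1.75 ± 1.71 in the parental line to 80.8 ± 27.5 in CRT35 Combo (SD, n = 3). SOCS1 also passed the filter only through groups in which it was called higher, so its calls are no support. SH2B3, an adaptor that limits KIT and cytokine receptor signals, was lower under Combo in both CRT34 (-1.67, SE 0.215, adjusted p = 0.000169) and CRT35 (-1.27, SE 0.215, adjusted p = 0.00418). The median change over the 26 transducers lay between -0.19 and 0.16 in the comparisons with the parental line.

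Genes near the receptors did not follow them as a block. HMGXB3, 148 bases from the 3′ end of CSF1R, TIGD6 next to it, and CHIC2 and SRD5A3 around the 4q12 cluster were called in none of the comparisons with the parental line. GSX2, CDX1 and SLC6A7 did not pass the filter on low values. ENSG00000282278, which reads through PDGFRA, was called higher in CRT35 DMSO.

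Genes with the most similar pattern over the 21 libraries are given as a description, since these libraries share their groups. Pearson r of log2 values was taken over 15112 protein-coding genes. CASP4 (0.959) and IL33 (0.940) were among the genes most like PDGFRA, and SCARF1 (0.948), CNTNAP1 (0.945) and COL1A1 (0.938) were most like PDGFRB. CSF1R was most like TMEM158 (0.922), IL4R (0.918) and PECAM1 (0.916). For the ligands, PDGFA was most like LGMN (0.956), NLRP3 (0.946) and COL16A1 (0.942), and PDGFC was most like MOSPD1 (0.954), GLIPR1 (0.951) and TCEAL9 (0.950). KITLG was most like NEXN (0.948), PSG2 (0.943), one of a family of near-identical genes whose reads may be shared, and MSMO1 (0.918). PDGFB was most like A2M (0.919), ZSCAN32 (0.888) and CDH5 (0.876). The leading values were lower for CSF1 (among them ATP2B4 at 0.869 and UBE2L6 at 0.863) and IL34 (SMAD9 at 0.858, SCN2B at 0.834, SULT1C4 at 0.830). Between members, r was highest for PDGFA with PDGFRA (0.811) and with PDGFRB (0.810), and lowest for PDGFB with CSF1 (-0.491). CSF1R and its ligand CSF1 had r = 0.412, and PDGFRB and its neighbour CSF1R had 0.448.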

How the data were processed

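Poly(A) RNA of 21 libraries was sequenced in paired 101 bp reads. The deposited values are a signal: per the labels' processing notes, the authors aligned reads to GRCh38 with STAR 2.6.1a (the study names a later version), estimated gene counts with RSEM and divided them by DESeq2 size factors. Between 17.8% and 63.9% of the values under 10 reads lay within 0.05 of a whole read, so reads were not recovered and count tests were not used. Depth was estimated from the size of 1 read, and this bounds the precision of low genes such as KIT and IL34. Identifiers of 58472 of the 58870 genes matched GENCODE v44, used here for names, positions and exon lengths. The 19290 genes that reached a value of 10 in 3 or more libraries were tested with limma 3.58.1 in R 4.3.3 (trend, 14 residual degrees of freedom) on log2(value + 1), with 1 mean for each of the 7 groups, no covariates, and Benjamini-Hochberg adjustment. The pseudocount understates changes of low genes. The calls used the thresholds of the study, an adjusted p of 0.05 and a 2-fold change. The script was tested on simulated data. Alternatives were a pseudocount of 10, no filter, only the compared groups, a replicate block, quantile normalization, equal totals and leaving out libraries. Members and gene lists were chosen with earlier results of these data known. All members are named, and from each list those called with the lowest p or listed at 0. Promoter windows came from RefSeq (GRCh38.p14), and 6 of 10 members had one. Protein sequences were not used here. Figures were drawn with matplotlib 3.10.9. Among the genes of similar pattern, 2 are not reported here.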

Additional observations from a re-analysis of the deposited data

How the results depend on the processing

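Of 1278 member results under the alternatives, 1212 kept their direction and their side of the thresholds, 28 lost a call, 16 gained one and 22 changed sign or reached 0. The number of members called moved by more than 1.5 times in 4 cases other than those that leave out 1 library. With only the libraries compared it went from 2 to 0 for Combo in CRT34 and from 0 to 1 for Combo in CRT35, where the genes called went from 983 to 36 and from 219 to 76, and fewer samples then estimate the spread. It went from 0 to 1 for the difference between the drug effects without both CRT34 Combo replicate 3 and CRT35 DMSO replicate 1 (genes called 2 and 288), and from 0 to 1 between the clones with quantile normalization. The cause was not tested. Those 2 libraries left out gave 1559 genes called for Combo in CRT34 and 350 in CRT35, and the pseudocount of 10, no filter, quantile normalization and equal totals gave 12, 4, 4 and 4 genes for the difference between the drug effects, against 1 with only the libraries compared.

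Counts of members called under the alternatives are over the 9 members tested and include IL34, whose calls in the Combo groups are no support. Leaving out 1 library gave 5 to 6 members called for gSOX10 #2 against the parental line, 6 to 6 for gSOX10 #4, 5 to 7 for CRT34 DMSO, 7 to 7 for CRT35 DMSO, 7 to 8 for CRT34 Combo and 8 to 8 for CRT35 Combo. It gave 1 to 3 for Combo in CRT34, 0 to 0 in CRT35, 0 to 1 for the difference between the drug effects, 0 to 1 between the clones and 1 to 3 between the CRT lines. With quantile normalization, sign changes were PDGFA in gSOX10 #2 (-0.18), PDGFB in CRT34 Combo (-0.13) and IL34 between the clones (0.13), none of them called, and PDGFB was called lower in CRT35 Combo (adjusted p = 0.0365). A pseudocount of 10 added PDGFB for Combo in CRT34 (-1.20, adjusted p = 0.0324). Quantile normalization and equal totals moved the median of all genes to between -0.13 and 0.15 on the log2 scale.

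Other sign changes came from leaving out 1 library, in differences that were not called. The log2 difference between the drug effects then ran from -0.19 to 0.82 for CSF1, -0.28 to 1.29 for CSF1R, -1.04 to 0.99 for IL34, -0.10 to 0.51 for PDGFA and -0.54 to 0.004 for PDGFRA, and without both CRT34 Combo replicate 3 and CRT35 DMSO replicate 1 it was 0.876 for CSF1, 1.61 for CSF1R and 1.35 for IL34. That of Combo ran from -0.31 to 0.005 for PDGFA and -0.084 to 0.37 for PDGFRB in CRT35, and from -0.007 to 0.32 for PDGFC in CRT34. Between the CRT lines it ran from -0.46 to 0.055 for CSF1R and -0.44 to 1.18 for IL34, between the clones from -0.18 to 0.84 for PDGFRA, and for IL34 in gSOX10 #4 against the parental line from 0 to 0.46.

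Same-numbered libraries deviated together (all r over 0.1) in 1 of 15 pairs of groups, CRT34 Combo and CRT35 Combo (r = 0.207 to 0.253), so the numbers were not taken as pairs. The replicate block changed 1 member call, PDGFB in CRT35 DMSO against the parental line (-1.38, adjusted p = 0.0335), which it called lower. The numbers of gSOX10 #2 were not in the labels, and no block was fitted there. Depth limits KIT and IL34, which lay near the value of a few reads in most libraries.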
